A study of Mus musculus with 2 samples.

Results

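Within the macrophages of mouse colitis-associated colon tumors (CACs), the cells described here expressed *Arg1* and lacked *Mrc1*. They were selected on these mRNAs alone, among cells that the deposited annotation calls MAC. A member held at least 3 UMIs (unique molecular identifiers, each counting 1 captured mRNA molecule) of *Arg1* and 0 of *Mrc1*. There were 490 members among 4809 annotated macrophages and 38883 cells in all. Members were compared, within each library, with macrophages of 0 *Arg1* and 0 *Mrc1* UMIs and at least 3000 UMIs in total, here called comparison cells.

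CACs of 2 genotypes were profiled by 10x 3′ single-cell RNA sequencing. The control library, labelled Mir34a_F/F, came from mice with floxed *Mir34a* alleles, and the library labelled Mir34a_Mye_KO came from floxed mice that carried LysM-Cre in addition. Mice of both genotypes were on a C57Bl/6 background, were 6 to 10 weeks old at treatment and received azoxymethane (10 mg/kg) before the first and again before the second of 3 colitis periods. Each period was a short course of dextran sodium sulfate in the drinking water (2.5%, 2.5% and 2%), regular water was given in between, and the mice were sacrificed at day 110. For each genotype, 6 to 8 tumors of 3 female mice were pooled and 30000 cells were loaded, so there was 1 library per genotype. LysM-Cre is driven by the *Lyz2* locus, which is active in monocytes, macrophages and neutrophils, and the whole series therefore compares a myeloid deletion in a tumor whose other cells keep *Mir34a*. The 3 mice behind a library were not separated here. Cells of 1 library are not replicates, so no test was made and no p-value is given. Intervals are at 95% and cover counting error only.

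Arginase 1, the product of *Arg1*, hydrolyses arginine to ornithine and urea, and thereby competes with the inducible nitric oxide synthase encoded by *Nos2* for arginine. In textbook schemes of macrophage polarization, *Arg1* and the mannose receptor *Mrc1* are both used as marks of the alternatively activated (M2) state, and *Nos2* and *Il23a* as marks of the inflammatory (M1) state. In tumors, *Arg1* is also known as a gene of hypoxic, myeloid-suppressive macrophages. *Arg1* without *Mrc1* therefore does not fall on 1 side of that scheme.

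The libraries held 147109016 UMIs in 20312 cells (Mir34a_F/F) and 193133086 UMIs in 18571 cells (Mir34a_Mye_KO), with medians of 4787 and 7716 UMIs per cell. Members had a median depth of 8773 and 13423 UMIs, above the 6303.5 and 9386 of the comparison cells. The libraries shared 96 cell barcodes. Of these, 4 were on members, and 0 were on members of both libraries. Markers of other cell types were present in members and in comparison cells. A filter on cells whose markers of another type reached 25% of that type's own level kept 161 of 329 and 95 of 161 members, and 246 of 578 and 288 of 669 comparison cells. The summed level of 8 neutrophil markers was 8.42 and 5.54 UMIs per 10000 in members of Mir34a_F/F and Mir34a_Mye_KO, against 1608 and 1049 in annotated neutrophils and 13.8 and 12.3 in comparison cells. The 6 epithelial markers summed to 20.4 and 11.3 in members, 20.8 and 15.7 in comparison cells, and 83.7 and 58.3 in epithelial cells. The 6 B or plasma cell markers summed to 9.48 and 23.7 in members against 10.7 and 35.6 in comparison cells. The 10 macrophage markers summed to 36.6 and 36.1 in members, 31.5 and 24.9 in comparison cells, and 31.4 and 28.4 over all annotated macrophages. Sums of T cell, dendritic cell, mast cell, fibroblast, endothelial and erythroid markers were at most 4.72 UMIs per 10000 in members, and 2 of 7 dendritic cell markers were at 0 in members of Mir34a_F/F. All 10 macrophage markers were detected, among them *Csf1r*, the receptor of the macrophage growth factor CSF1, with a UMI in 85.4% and 91.3% of members.

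The targeted gene was barely detected in members. The feature of the primary *Mir34a* transcript had 26 UMIs (17.0 to 38.1) in the 329 members of Mir34a_F/F and 24 UMIs (15.4 to 35.7) in the 161 members of Mir34a_Mye_KO. Per cell it was not lower in the library labelled Mir34a_Mye_KO, with 0.0657 and 0.109 UMIs per 10000 and a UMI in 6.08% and 10.6% of members. Which part of the locus this feature covers was not given in the sources used here, so it does not check the deletion. The hairpin, stem-loop and mature features had 0 UMIs in both libraries, which, taking 3 counts as the limit that a count of 0 allows, leaves a share of up to 0.912% and 1.86% of members with a UMI. The feature named for Cre and *Lyz2*, whose sequence was not given either, had 95 UMIs (76.9 to 116) in members of Mir34a_F/F, the genotype labelled without Cre, and 10 (4.795 to 18.4) in members of Mir34a_Mye_KO. *Lyz2* itself, lysozyme, had 781 and 99 UMIs. If these last features share sequence, reads can be split between them, so their levels are uncertain, and they do not check the labels either.

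Members made up a larger part of the macrophages in the control library. In Mir34a_F/F, 329 of 2208 macrophages were members (14.9%, exact binomial interval 13.4 to 16.5). In Mir34a_Mye_KO there were 161 of 2601 (6.19%, 5.29 to 7.19), a difference of -8.71 percentage points (-10.5 to -6.96). The *Arg1*-high macrophages that did hold *Mrc1* had the same direction, with 9.69% and 5.27%. Macrophages with at least 3 UMIs of *Mrc1* and 0 of *Arg1* had the opposite one, with 11.3% (9.99 to 12.7) and 22.4% (20.8 to 24.1). This class was deeper in Mir34a_Mye_KO, with medians of 10617 and 20668 UMIs. A deeper cell is more likely to reach 3 *Mrc1* UMIs, and the part of depth in this share was not tested. After thinning each macrophage of at least 3000 UMIs to 3000 UMIs, the rule for members found 15.8% and 5.80%, the same order at equal depth.

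**Figure D1:**
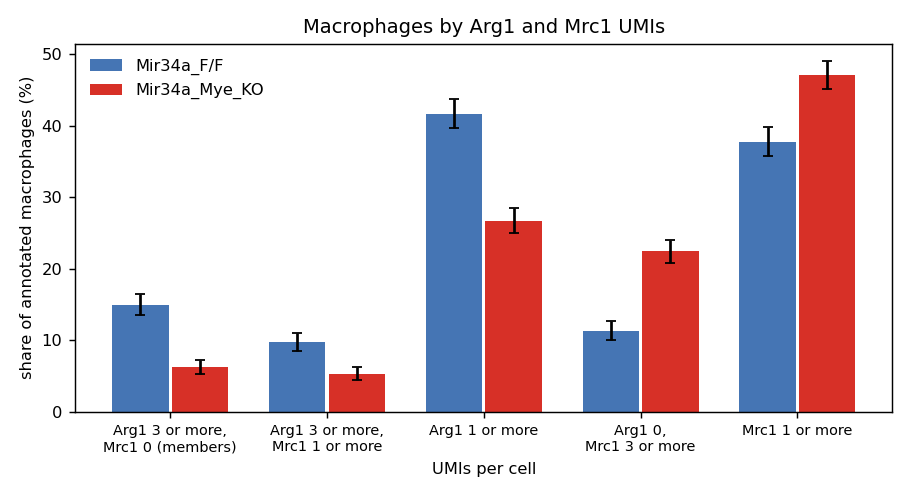
Share of annotated macrophages (%) in each class of *Arg1* and *Mrc1* UMIs per cell, for the libraries Mir34a_F/F (blue) and Mir34a_Mye_KO (red). Bars start at 0 and error bars are exact binomial 95% intervals, which cover counting error only. Members were 14.9% and 6.19%, while cells with at least 3 *Mrc1* UMIs and 0 of *Arg1* were 11.3% and 22.4%. These shares are at the deposited depth, which was higher in Mir34a_Mye_KO.

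The lower share went along with a lower level of *Arg1* per 10000 UMIs in most other cell types. The mean level of *Arg1* over all macrophages was 4.797 UMIs per 10000 in Mir34a_F/F and 2.12 in Mir34a_Mye_KO. In T cells, which should lack it, the level was 0.297 and 0.147, and in epithelial cells 0.567 and 0.342. The ratio of Mir34a_Mye_KO to Mir34a_F/F was -1.17 in macrophages and -1.01 in T cells on the log2 scale. It was below 0 in 10 of 11 annotated cell types, the exception being erythroid cells. Some of these types held too few *Arg1* UMIs to give a direction. The UMIs were 3 and 2 in fibroblasts, 9 and 3 in endothelial cells, 4 and 10 in basophils and 5 and 4 in erythroid cells. Detection did not fall in the same way in all types. An *Arg1* UMI was held by 41.7% and 26.7% of macrophages, 8.91% and 8.42% of T cells, and 9.86% and 16.8% of B cells. Cells of Mir34a_Mye_KO were deeper, and the parts of free RNA and of depth in these levels were not tested. At least 3 *Arg1* UMIs were held by 24.6% and 11.5% of macrophages (median depth 7251.5 and 11227 UMIs), 3.67% and 2.74% of epithelial cells (5315.5 and 6623), 1.42% and 1.30% of neutrophils (4107 and 7330) and 0.291% and 0.566% of T cells (3548 and 8043). B cells had 0.318% and 2.05%, the latter at a median depth of 20852 UMIs.

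*Arg1* itself varied widely among members. Its mean was 19.8 UMIs per 10000 in Mir34a_F/F, with a lowest, median and highest cell of 1.24, 14.6 and 119. In Mir34a_Mye_KO the mean was 18.4, with 0.918, 12.2 and 111. These values chose the cells and are given as a description. At the threshold, the 49 cells with exactly 2 *Arg1* UMIs in Mir34a_F/F had 9.11 *Spp1* UMIs per 10000 and the 38 cells with exactly 3 had 14.01. The 39 and 14 such cells of Mir34a_Mye_KO had 3.24 and 11.9. *Mmp12* in the same cells was 5.99 and 8.40 in Mir34a_F/F and 4.07 and 5.66 in Mir34a_Mye_KO. Among the other mRNAs, *Nos2* had the same order, with 0.397 and 0.603 in Mir34a_F/F and 0.351 and 0.461 in Mir34a_Mye_KO. *Vegfa* kept it as well, with 3.84 and 5.65, and 2.88 and 2.90. *Cxcl3*, *Il23a*, *Il6*, *Ccl24* and *Ly6c2* did not keep it in Mir34a_Mye_KO. *Mmp9*, *C1qa*, *Csf1r* and *H2-Aa* did not keep it in Mir34a_F/F, and *Inhba* kept it in neither library. *Cxcl3* was 9.12 at 2 and 16.5 at 3 UMIs in Mir34a_F/F, but 10.5 and 2.10 in Mir34a_Mye_KO. *Il23a* was 1.29 and 2.81 in Mir34a_F/F, and 1.89 and 0.572 in Mir34a_Mye_KO.

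The plot of *Arg1* bins extends this over the whole range. In Mir34a_F/F, *Spp1* was 2.42 UMIs per 10000 in cells with 0 *Arg1* UMIs, 7.02 with 1, 12.8 with 4 to 9, 21.3 with 10 to 29 and 33.1 with 30 or more. In Mir34a_Mye_KO the same bins gave 1.48, 2.54, 7.42, 16.1 and 46.6. A single member in the last of these bins had 918 *Spp1* UMIs per 10000, so the mean of that bin rests on few cells. *Spp1* thus was higher at high than at low *Arg1* in both libraries, and *Mmp12* likewise. *Il23a* did not share that pattern. It was highest at 3 *Arg1* UMIs in Mir34a_F/F (2.81) and near the comparison cells at 30 or more (0.307), while in Mir34a_Mye_KO it was highest at 30 or more (3.996). *C1qa*, a subunit of complement C1q and a mark of mature tissue macrophages, was highest at 30 or more in Mir34a_F/F (12.9) and low there in Mir34a_Mye_KO (2.86). The last bin was also deeper, with medians of 14813.5 and 16017 UMIs against 6303.5 and 9386 at 0 *Arg1* UMIs, and the part of depth in these courses was not tested. The 14 cells at exactly 3 UMIs in Mir34a_Mye_KO are too few to be read as a point of a course.

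**Figure D2:**
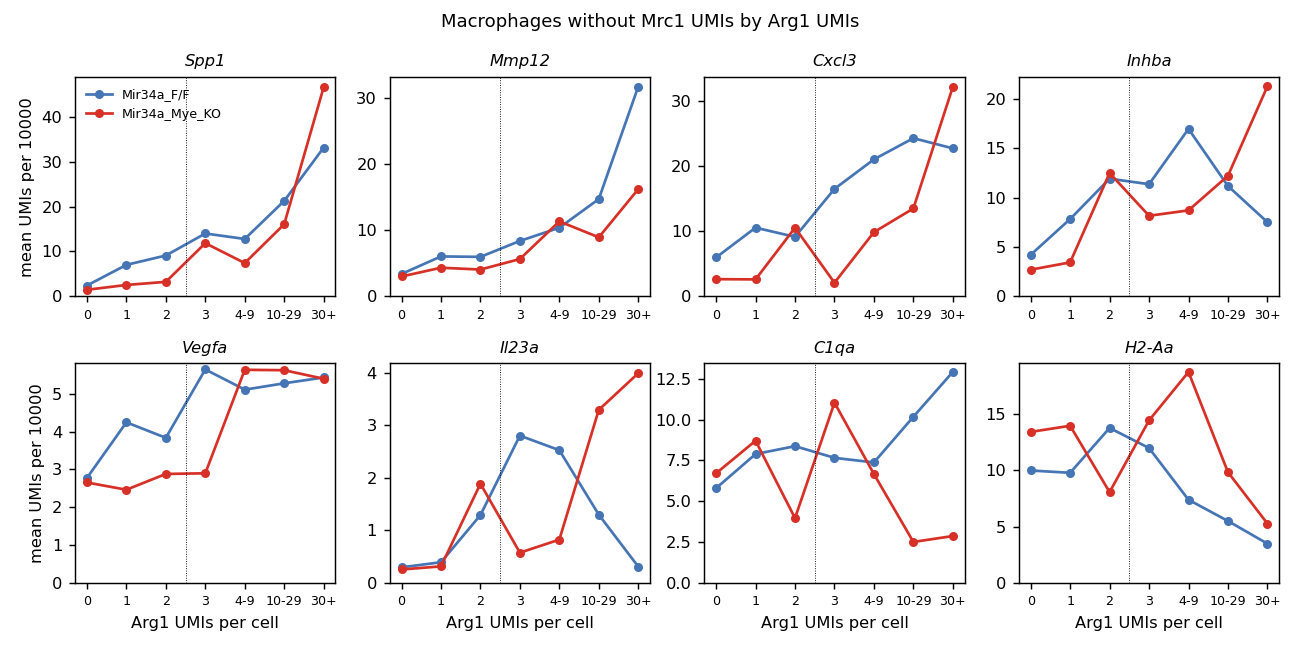
Mean level (UMIs per 10000) of 8 mRNAs in macrophages with 0 *Mrc1* UMIs, by the number of *Arg1* UMIs of the cell, for Mir34a_F/F (blue) and Mir34a_Mye_KO (red). Cells with 0 *Arg1* UMIs are the comparison cells, cells right of the dotted line are members. *Spp1* was 33.1 and 46.6 in the highest bin, the latter with a single cell at 918, while *Il23a* and *C1qa* took different courses in the 2 libraries.

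Few genes differed between members and comparison cells by the fold used. Of 8742 genes with a mean of at least 0.1 UMIs per 10000 in Mir34a_F/F, 214 were higher by at least 2-fold (2.45%) and 214 lower (2.45%). In Mir34a_Mye_KO, 207 of 8562 were higher (2.42%) and 298 lower (3.48%). In both libraries, 86 of 8235 genes were higher (1.04%) and 78 lower (0.947%), and 0 genes passed the fold in opposite directions. The rule on *Arg1* made this contrast, so the counts are a description. The median log2 ratio of all genes was -0.01 and -0.07. With totals that leave out immunoglobulin, mitochondrial and ribosomal RNA-like genes, the median in Mir34a_Mye_KO moved to -0.15 and the split to 199 higher and 508 lower, so small negative values of that library depend on the scaling.

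**Figure D3:**
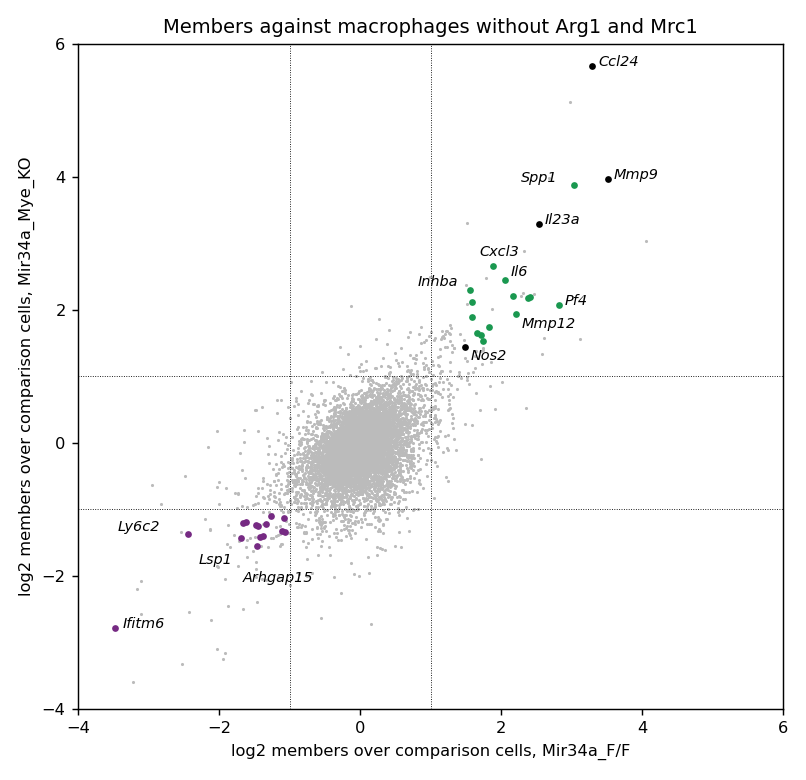
Log2 ratio of members over comparison cells in Mir34a_F/F (x axis) and Mir34a_Mye_KO (y axis) for 8235 genes tested in both libraries (grey). Green and purple points are the 15 genes in each direction named by the rule, black points are *Ccl24*, *Mmp9*, *Il23a* and *Nos2*, and dotted lines mark a fold of 2. All labelled genes lie in the same direction in both libraries.

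*Spp1* had the largest ratio of the genes named by the rule. It encodes osteopontin, a secreted matrix glycoprotein of tumor macrophages. Its level was 19.8 UMIs per 10000 in members and 2.42 in comparison cells of Mir34a_F/F, a log2 ratio of 3.03 (2.92 to 3.14). In Mir34a_Mye_KO the levels were 21.7 and 1.48, a log2 ratio of 3.88 (3.77 to 3.98). Thinned to 3000 UMIs, *Spp1* was detected in 63.5% and 47.4% of members against 30.6% and 20.03% of comparison cells. As deposited, 76.3% and 64.6% of members held a UMI, while 28.0% and 23.5% of T cells did at their lower depth. The level in T cells was 1.23 and 0.499 UMIs per 10000, and the part of free RNA in it was not tested.

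Both mRNAs named above as M1 marks, *Nos2* and *Il23a*, were higher in these *Arg1*-expressing cells, too. *Nos2* was 1.06 UMIs per 10000 in members and 0.378 in comparison cells of Mir34a_F/F, and 0.494 and 0.181 in Mir34a_Mye_KO. The log2 ratios were 1.49 (1.16 to 1.81) and 1.45 (1.01 to 1.89). A UMI of *Nos2* was found in 31.3% and 19.9% of members, but also in 10.3% and 14.1% of T cells. The *Nos2* level in T cells was 0.328 and 0.239 UMIs per 10000, near that of the comparison cells. The part of free RNA in it was not tested. *Il23a*, the p19 subunit of interleukin-23, was 1.69 and 0.293 in Mir34a_F/F (log2 ratio 2.53, 2.21 to 2.85) and 2.48 and 0.252 in Mir34a_Mye_KO (3.30, 3.03 to 3.57). It was detected in 23.4% and 26.1% of members and in 3.85% and 4.64% of T cells. *Spp1*, *Nos2* and *Il23a* were proposed as markers of these cells from earlier results on the same data, so their direction is not independent evidence.

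Genes of arginine use showed a narrow change. *Slc7a2*, a transporter of cationic amino acids that brings arginine into the cell, was higher in members by 1.71 and 1.63 on the log2 scale, with 1.79 and 1.94 UMIs per 10000 in members and 0.547 and 0.628 in comparison cells. *Ass1*, which makes argininosuccinate from citrulline, had log2 ratios of 0.71 and 1.32. *Arg2*, the mitochondrial arginase, had 0.53 and 0.62. The polyamine enzyme *Odc1*, downstream of ornithine, had 0.09 and 0.35, and *Slc7a1*, another cationic amino acid transporter, -0.39 and -0.61. Of 15 list genes, 2 and 3 were higher by at least 2-fold and 0 lower, with medians of 0.40 and 0.16. Past the fold in both libraries were *Nos2* and *Slc7a2*.

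Several inflammatory cytokine genes were higher in members. *Il6*, which encodes interleukin-6, was 2.13 UMIs per 10000 against 0.512 in Mir34a_F/F and 1.65 against 0.301 in Mir34a_Mye_KO, with log2 ratios of 2.06 (1.80 to 2.31) and 2.45 (2.17 to 2.74). *Il1a*, an alarmin of the interleukin-1 family, was higher by 1.59 and 1.89. Of 11 genes of the cytokine list tested in both libraries, 4 were higher by at least 2-fold in both and 0 lower, with medians of 0.86 and 1.27. These were *Il6*, *Il1a*, *Il23a* and the interleukin-12 subunit *Il12a* (1.51 and 3.31). *Inhba*, the subunit of activin A and not in the list, was 12.4 against 4.20 and 13.3 against 2.70, with log2 ratios of 1.56 and 2.30. *Il1b* (0.39 and 1.16), *Tnf* (0.86 and 1.37) and *Ptgs2*, the cyclooxygenase of prostaglandin synthesis (0.97 and 1.60), passed the fold in Mir34a_Mye_KO alone. Whether they differed between the libraries in this contrast was not tested.

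Several chemokines were higher in members, among them ligands of the neutrophil receptor CXCR2. *Cxcl3* was 22.0 UMIs per 10000 against 5.96 in Mir34a_F/F and 16.7 against 2.64 in Mir34a_Mye_KO, with log2 ratios of 1.88 and 2.66. *Cxcl1* had 10.1 against 3.38 and 10.3 against 2.36, ratios of 1.58 and 2.12. *Cxcl2*, the most abundant of these, had 138 against 76.2 and 155 against 46.0, ratios of 0.86 and 1.75. *Ccl24*, an eosinophil chemokine, had the largest ratio of the list, 3.29 and 5.68 (8.81 against 0.898, and 7.46 against 0.146). *Ccl24* also belongs to the interleukin-4 response genes, of which 1 of 7 was higher and 1 lower in both libraries, with medians of -0.16 and 0.02. *Cxcl14*, named by the rule and outside the list, was higher by 2.40 and 2.20. The interferon-induced *Cxcl10* had 0.21 and -0.67, and *Ccl8* had -1.49 and -1.41. Its direction in Mir34a_Mye_KO turned to 0.46 without cells whose markers of another type reached 25% of that type's own level. Of 17 chemokines, 4 (*Ccl24*, *Cxcl3*, *Cxcl1* and *Ccl3*) were higher and 1 (*Ccl8*) lower by at least 2-fold in both libraries, with medians of 0.61 and 0.57.

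Since *Il6* and the CXCR2 ligands were higher together, the windows around their start sites are shown. NF-κB is the transcription factor that textbook accounts place upstream of these cytokines, and its κB consensus of 10 bases was searched on both strands in RefSeq promoter windows (250 bases before to 50 after the start, build GRCm38.p6). Of the 15 named genes that were higher, 12 had a window and 4 of these held a match (33.3%), namely *Il6*, *Mmp12*, *Cxcl3* and *Cxcl1*. A match was present in 5 of 11 chemokines with a window (45.5%), among them *Cxcl10*, which had the most (3) and was not higher in members, and not in *Ccl3*, which was. It was present in 1 of 9 cytokines of the list (11.1%). Over all 27025 genes with a window, 9.55% held one. The stretches of 30 bases run 5′ to 3′ on the strand of the gene, all on the plus strand, and the capitals mark the match. They are those of *Il6* and the CXCR2 ligands *Cxcl1*, *Cxcl2* and *Cxcl3*, whose mRNAs had ratios above 0 in both libraries. *Mmp12* also held a match and had ratios of 2.21 and 1.93, but its stretch is not shown.
Il6, chr5:30013060-30013089: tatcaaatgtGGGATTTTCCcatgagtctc
Cxcl1, chr5:90891164-90891193: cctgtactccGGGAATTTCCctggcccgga
Cxcl2, chr5:90903792-90903821: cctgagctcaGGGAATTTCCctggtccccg
Cxcl3, chr5:90786018-90786047: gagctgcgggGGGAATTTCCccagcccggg
*Cxcl1*, *Cxcl2* and *Cxcl3* carry the same 10 bases, and each also matched on the other strand 1 base further on. The matches began 44 bases before the start in *Il6*, 71 in *Cxcl1*, 97 in *Cxcl2* and 73 in *Cxcl3*. No match was found in the windows of *Spp1*, *Inhba*, *Il1b*, *Tnf* and *Ptgs2*. A match describes the letters of the window and is no evidence of binding in these cells.

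Several genes of secreted proteases and matrix were also higher. *Mmp9*, gelatinase B, was 2.83 UMIs per 10000 against 0.248 in Mir34a_F/F (log2 ratio 3.51, 3.21 to 3.81) and 2.21 against 0.141 in Mir34a_Mye_KO (3.97, 3.58 to 4.37). T cells had 0.196 and 0.235 UMIs per 10000 of *Mmp9*, so the comparison cells were near or below that level. The part of free RNA in these levels was not tested. *Mmp12*, macrophage elastase, was 15.7 against 3.40 and 11.5 against 3.02, ratios of 2.21 and 1.93. *Fn1*, fibronectin, had 14.9 against 6.45 and 21.4 against 6.69, ratios of 1.21 and 1.68. Of 15 genes of the matrix and plasminogen list, 6 were higher by at least 2-fold in both libraries, and the versican gene *Vcan*, which monocytes express, was lower in both (-1.62 and -1.19). The medians were 0.93 and 0.76.

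Genes of hypoxia and glycolysis were higher by small amounts. Of 26 tested, 24 had ratios above 0 in both libraries, with medians of 0.53 and 0.78, but only *Bnip3*, a mitophagy receptor induced by low oxygen, passed the fold in both (1.27 and 1.64). *Vegfa*, the endothelial growth factor, was 5.30 UMIs per 10000 against 2.77 and 5.33 against 2.65, ratios of 0.93 and 1.01. The glycolytic *Pgk1* had 0.74 and 1.04, *Aldoa* 0.77 and 0.83, and *Gapdh* 0.72 and 0.96. *Pfkfb3*, a regulator of glycolytic flux, had -0.00 and 0.13. Of the antioxidant genes, 9 of 9 tested in both libraries had ratios above 0, with medians of 0.66 and 0.96. *Hmox1*, heme oxygenase 1, was the one past the fold in both, at 1.27 and 1.53.

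Genes associated with lipid-laden *Spp1* macrophages passed the fold in part. Of the list, which includes *Spp1* itself, 11 of 17 genes were higher by at least 2-fold in Mir34a_F/F and 5 of 16 in Mir34a_Mye_KO, with medians of 1.27 and 0.51. *Apoe*, apolipoprotein E, was 104 UMIs per 10000 against 41.3 in Mir34a_F/F (log2 ratio 1.33) and 39.8 against 38.2 in Mir34a_Mye_KO (0.06). *Gpnmb* had ratios of 2.36 and 0.52, and *Trem2*, a lipid-sensing receptor, 1.10 and 0.28. In both libraries, 4 of 16 passed the fold, among them *Cd9* (1.16 and 1.68). The difference between the libraries in this contrast was not tested.

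**Figure D4:**
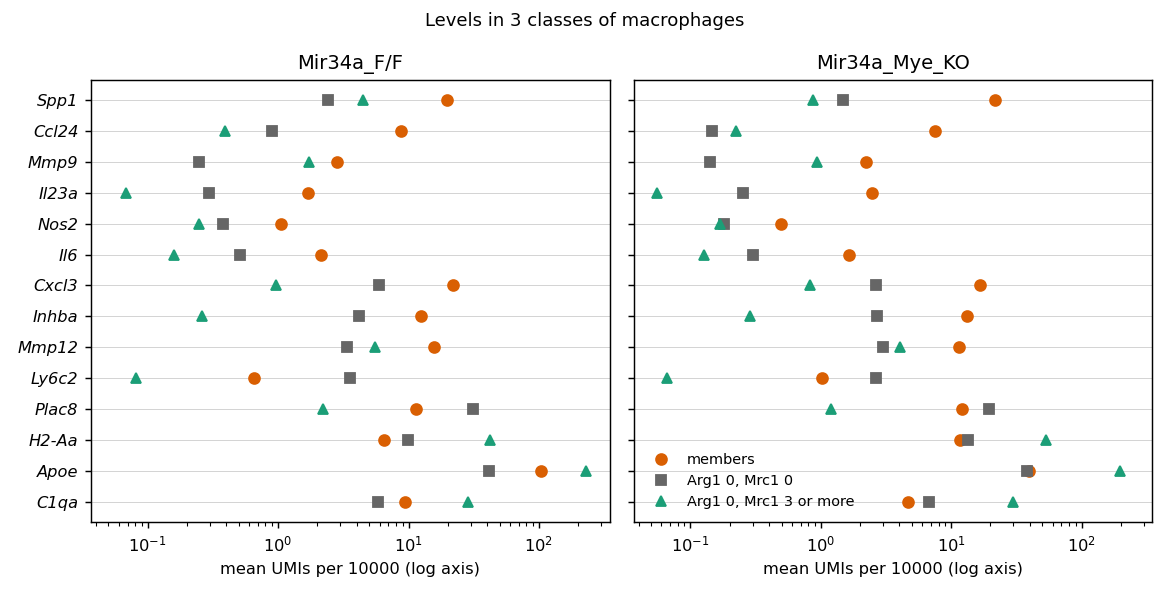
Mean level (UMIs per 10000, log axis) of 14 mRNAs in members (circles), comparison cells (squares) and *Mrc1*-high macrophages without *Arg1* (triangles), for each library. *Spp1* to *Mmp12* lie highest in members, *Ly6c2* and *Plac8* highest in comparison cells, and *H2-Aa*, *Apoe* and *C1qa* highest in *Mrc1*-high cells.

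On the other side, the comparison cells held more monocyte mRNA. *Ly6c2*, the surface mark of classical monocytes, was 0.652 UMIs per 10000 in members and 3.55 in comparison cells of Mir34a_F/F, and 1.03 and 2.66 in Mir34a_Mye_KO. The log2 ratios were -2.45 (-2.70 to -2.19) and -1.37 (-1.57 to -1.18). All 10 monocyte genes had ratios below 0 in both libraries, with medians of -1.54 and -0.75. *Plac8* had -1.46 and -0.68. *Ifitm6*, an interferon-induced transmembrane protein gene of monocytes, was the lowest of the named genes with -3.47 and -2.79. *Itga4*, an integrin of blood leukocytes, was lower by -1.48 and -1.23. The part of monocytes among the comparison cells in the other differences was not tested.

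The remaining genes named by the rule were of mixed function. Higher were *Mfge8*, a bridge to apoptotic cells (2.37 and 2.18), *Pf4*, a platelet and macrophage chemokine (2.81 and 2.07), the phospholipase *Pla1a* (2.17 and 2.21), the niacin receptor *Hcar2* (1.82 and 1.74), the matrix protein gene *Ecm1* (1.65 and 1.66) and *Rai14* (1.75 and 1.53). Lower were *Arhgap15* (-1.46 and -1.55) and *Arhgap26* (-1.42 and -1.41), the actin-binding *Lsp1* (-1.69 and -1.43), *Slfn5* (-1.38 and -1.40) and the Src-family kinase *Fyn* (-1.45 and -1.25). Lower also were *Gpr141*, *Clec4a3*, *Tmem176a*, *Tmem176b* and the inhibitory receptor *Cd300a*, with ratios between -1.67 and -1.07. *Foxp1*, a transcription factor that the study lists among miR-34a targets, was lower in members by -1.11 and -1.33.

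MHC class II genes, needed to present antigen to helper T cells, were lower, by less than the fold for most. All 7 had ratios below 0 in both libraries, with medians of -0.58 and -0.19, and 1 passed the fold in both. This was *Ciita*, the master regulator of the class, with -2.20 and -1.14. *H2-Aa* was 6.49 UMIs per 10000 against 9.995 in Mir34a_F/F and 11.8 against 13.4 in Mir34a_Mye_KO. Interferon-stimulated genes had medians of -0.29 and -0.67 and immediate-early genes -0.24 and -0.19. None of these passed the fold in both libraries.

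Against *Mrc1*-high macrophages without *Arg1* (249 and 583 cells, median depth 10617 and 20668 UMIs), members differed in antigen presentation, resident and hypoxia genes. Of 8391 genes tested in both libraries, 273 were higher by at least 2-fold in both (3.25%) and 519 lower (6.19%), and the median log2 ratio of all genes was -0.06 and -0.05. *Mrc1* and *Arg1* chose both groups, so these counts too are a description. All 7 MHC class II genes were lower by at least 2-fold in both libraries, with medians of -2.44 and -2.18. Of 11 resident macrophage genes tested in both, 10 were lower by at least 2-fold in both, with medians of -1.58 and -2.12. *C1qa* was 28.4 UMIs per 10000 in *Mrc1*-high cells of Mir34a_F/F and 9.47 in members, and 29.7 and 4.66 in Mir34a_Mye_KO. Of 26 hypoxia and glycolysis genes, 17 were higher by at least 2-fold in both, with medians of 1.40 and 1.55. *Inhba* had log2 ratios of 5.56 and 5.53, and *Il23a* 4.63 and 5.48. *Il23a* was 1.69 and 2.48 UMIs per 10000 in members, so its ratios put *Mrc1*-high cells below the 0.0986 and 0.0740 of T cells. The size of a ratio over so low a level is uncertain. *Csf1r* was lower in members, by -0.91 and -1.01. Monocyte genes were higher in members in this contrast, with medians of 3.01 and 2.83, while they were below 0 against the comparison cells.

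Cells with *Arg1* and *Mrc1* together (214 and 137) differed from members as well. These cells were deeper, with medians of 15191 and 21869 UMIs, and a shallow cell is more likely to show 0 *Mrc1* UMIs. The log2 ratio of members over them was 3.08 and 1.79 for *Il23a*, 2.29 and 1.40 for *Inhba*, and 3.06 and 0.56 for *Il6*. It was -1.19 and -2.03 for *C1qa* and -1.13 and -1.60 for *Apoe*. *Spp1* had -0.52 and 0.33, so it did not set members apart from these cells in 1 direction.

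Members were not uniform. Some of the mRNAs with large ratios were held by few cells, and others were spread more widely. The 33 members with the most UMIs of a gene in Mir34a_F/F, and the 17 in Mir34a_Mye_KO, were counted for each gene. They held 94.2% and 90.2% of the *Ccl24* UMIs and 95% and 96.3% of those of *Mmp9*. For *Il23a* the shares were 84.1% and 86.1%, and for *Spp1* 65.6% and 85.2%. They were 53.3% and 64.7% for *Cxcl1*, 49.9% and 57.2% for *Cxcl3* and 47.6% and 48.6% for *Inhba*. The lowest of those given here were 32.2% and 30.4% for *Vegfa*, 36.8% and 34.6% for *Cxcl2*, and 41.2% and 39.9% for *Arg1*. One cell of Mir34a_Mye_KO held 1883 *Spp1* UMIs, so means of *Spp1* there rest on few cells. The median member had 4.52 and 1.12 *Spp1* UMIs per 10000, and 0 of *Il23a*, *Nos2*, *Ccl24*, *Mmp9* and *Il6* in both libraries.

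Members with a UMI of *Il23a* (77 of 329 and 42 of 161) had higher levels of cytokine mRNAs. *Il6* was 6.08 UMIs per 10000 in them and 0.924 in the other members of Mir34a_F/F, and 5.34 and 0.350 in Mir34a_Mye_KO. The log2 ratios were 2.72 (2.42 to 3.01) and 3.93 (3.49 to 4.37). *Ptgs2* had 1.91 and 1.68, *Cxcl2* 1.73 and 1.49, *Cxcl3* 1.34 and 1.52, and *Il1b* 1.48 and 1.11. The opposite held for *Mmp9* (-1.91 and -3.76), *Mmp12* (-1.07 and -0.94), *Pf4* (-1.82 and -2.92), *C1qa* (-1.30 and -2.07) and *Apoe* (-1.78 and -2.27). *Il23a*-positive members had a median depth of 7248 UMIs against 9385.5 in Mir34a_F/F, and 14358.5 against 12961 in Mir34a_Mye_KO. In cells thinned to 3000 UMIs, *Il6* had 3.07 and 3.91, *Ptgs2* 2.10 and 1.82, and *Mmp9* -2.44 and -2.42. The higher cytokine levels were not particular to members. In comparison cells with a UMI of *Il23a*, *Il6* had 2.12 and 1.69 and *Ptgs2* 1.45 and 1.82.

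**Figure D5:**
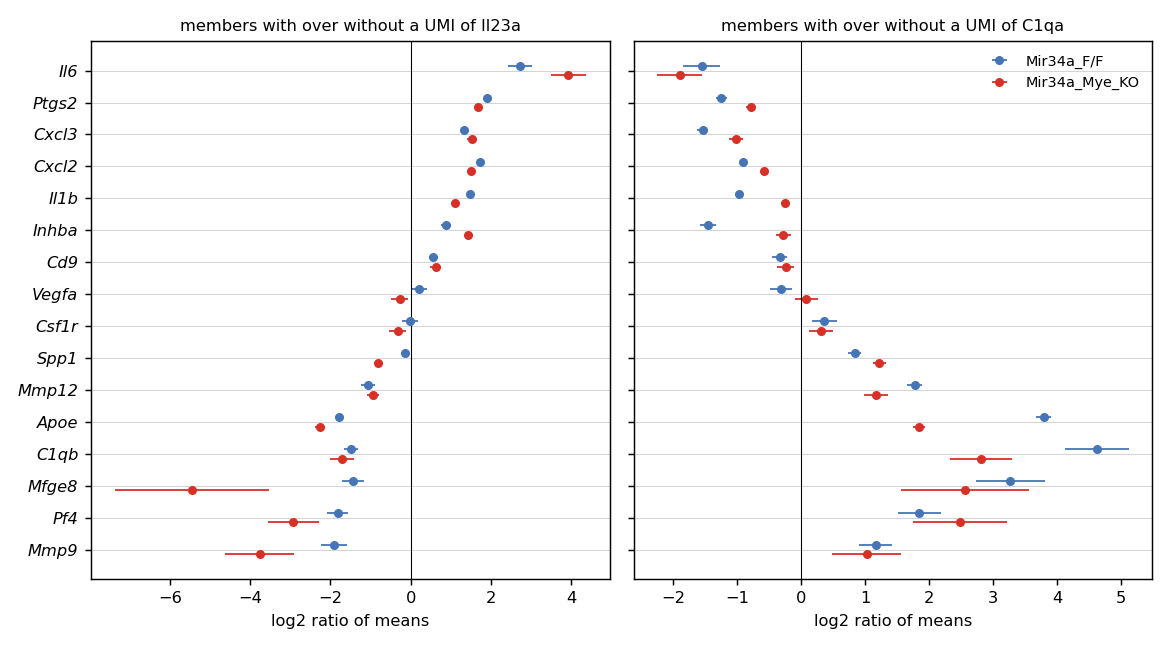
Log2 ratio of the mean level in members with a UMI of *Il23a* (left) or *C1qa* (right) over members without one, for 16 mRNAs, in Mir34a_F/F (blue) and Mir34a_Mye_KO (red). Bars are 95% intervals from counting error. *Il6*, *Ptgs2* and the *Cxcl* genes lie right of 0 for *Il23a* and left of 0 for *C1qa*, and *Apoe*, *Mfge8*, *Pf4* and *Mmp9* the other way round.

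Members with a UMI of *C1qa* (206 and 94) showed the reverse. *Apoe* was 159 UMIs per 10000 in them and 11.5 in the other members of Mir34a_F/F, and 56.8 and 15.8 in Mir34a_Mye_KO, log2 ratios of 3.79 and 1.84. *Mfge8* had 3.27 and 2.56, *Pf4* 1.85 and 2.47, and *Mmp12* 1.77 and 1.17. *Il6* had -1.55 and -1.90, *Cxcl3* -1.53 and -1.02, and *Ptgs2* -1.24 and -0.78. *C1qa*-positive members were deeper in Mir34a_F/F (11482 against 6531 UMIs) and in Mir34a_Mye_KO (14358.5 against 12765), and 23.3% and 38.5% of T cells held a *C1qa* UMI. In cells thinned to 3000 UMIs, *Apoe* had 3.57 and 2.39 and *Il6* -3.13 and -4.01. Thinning moved *Mfge8* to 3.16 and 3.94, *Pf4* to 2.85 and 4.78, *Mmp12* to 0.69 and 2.19, and *Cxcl3* to -2.04 and -2.27, with the direction of each kept. Thinning also set anew which members held a *C1qa* UMI (167 and 55). *Spp1* was 0.84 and 1.22 as deposited, and 0.89 and -0.82 when thinned, so its direction in Mir34a_Mye_KO did not hold. This split, too, was not particular to members, as comparison cells with a *C1qa* UMI (253 and 411) had log2 ratios of 2.71 and 2.41 for *Apoe*, 2.32 and 2.79 for *Pf4*, and -0.90 and -0.99 for *Cxcl3*. Both splits were chosen after values of these genes were known.

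The split by *Nos2* moved with thinning. Thinning also set anew which members held a *Nos2* UMI (103 and 32 as deposited, 41 and 18 thinned), so the part of depth alone was not tested. *Il23a* was detected in 27.2% of *Nos2*-positive and 21.7% of *Nos2*-negative members of Mir34a_F/F, and in 40.6% and 22.5% in Mir34a_Mye_KO. Its mean level did not share this order, with log2 ratios of -0.72 (-1.10 to -0.33) and 0.01 (-0.33 to 0.34) as deposited. Thinned to 3000 UMIs, the ratios were -0.38 and 0.73. *Cxcl3* was higher in *Nos2*-positive members, with log2 ratios of 0.72 and 0.38 as deposited and 1.43 and 0.71 when thinned to 3000 UMIs. *Il6* had -0.36 (-0.68 to -0.05) and -0.03 (-0.43 to 0.38) as deposited, and 0.27 (-0.28 to 0.82) and 0.09 when thinned, with an interval that includes 0. *Spp1* changed its direction, from 0.15 and 1.91 as deposited to -0.92 and -1.09 when thinned, and *Mmp12* in Mir34a_F/F went from 0.73 to -1.45. No order of *Il6*, *Il23a*, *Spp1* or *Mmp12* by *Nos2* is therefore given. *Nos2* itself was detected in 12.9% and 11.8% of thinned members (41 and 18 cells) and in 8.30% and 4.48% of thinned comparison cells.

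Between the libraries, members of Mir34a_Mye_KO had lower mean levels of several resident and lipid-associated mRNAs. Of 8623 genes tested, 160 were higher (1.86%) and 375 lower (4.35%) by at least 2-fold in Mir34a_Mye_KO, with a median log2 ratio of -0.07. *Apoe* had -1.39 (-1.43 to -1.35), *C1qc* -1.38 (-1.54 to -1.22), *Gpnmb* -2.07 (-2.37 to -1.77) and *Mfge8* -1.68 (-1.87 to -1.48). These means rest largely on few members. The top 33 and 17 held 87.9% and 94.9% of the *Gpnmb* UMIs and 85.9% and 94.3% of those of *Mfge8*, and the median member had 0 of either in both libraries. The same numbers of members held 60.7% and 74.3% of the *Apoe* UMIs, and its median was 16.7 and 9.44 UMIs per 10000. Resident macrophage genes had a median of -0.80 in members, with 4 of 11 past the fold, and 0.06 in comparison cells. Lipid-associated genes had -0.69 in members, with 4 of 16 past the fold, and -0.17 in comparison cells. *Lyz2* was lowest with -2.22 and is uncertain, as said above. *Lcn2* (-1.44), *Dynll2* (-1.42) and the unnamed loci *Gm41609*, *Gm11808* and *Gm11290* (-1.85, -1.67 and -1.52) complete the genes named by the rule. Epithelial markers moved in the same direction, with 0 of 6 above 0 and a median of -0.83 in members, and the B or plasma cell markers the opposite one (1.46). Their part in the differences between the libraries was not tested.

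Higher in Mir34a_Mye_KO members were *Ccr2*, the receptor that brings monocytes into tissue (0.483 and 1.43 UMIs per 10000, log2 ratio 1.57, 1.24 to 1.89), and *Plcl1* (1.59). *Prkce* (1.41), *Zc3h12c* (1.29), *Ifi205* (1.19), *B3gnt5* (1.17), *Fyn* (1.11), *Nfatc1* (1.10) and *Zeb1*, a transcription factor of the mesenchymal state (1.10), were also higher. All 6 MHC class II genes tested were above 0, with a median of 0.65 against 0.38 in comparison cells, and none passed the fold. Monocyte genes had a median of 0.29 in members and -0.49 in comparison cells, with *Ccr2* the one past the fold. *Vegfa* (0.01), *Cxcl1* (0.02) and *Inhba* (0.10) had ratios of means close to 0. *Arg1* had -0.11, but its UMIs chose the members of both libraries, so this value is a description. The mean of *Spp1* (0.13) rests on few cells in Mir34a_Mye_KO, and the median member had 4.52 and 1.12 UMIs per 10000, with detection in 63.5% and 47.4% of thinned members. *Nos2* was lower with -1.10 (-1.47 to -0.72), but had -0.22 in cells thinned to 3000 UMIs.

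Of the 13 published or potential miR-34a targets that the study names in macrophages, 0 passed the fold between members of the libraries. All 13 had ratios above 0, with a median of 0.26, while 3734 of all 8623 genes tested were above 0. *Ccr1* had 0.75 and *Csf1r* 0.15. *Ell2* had 0.66 and *Btg2* 0.60, and both are among those that the study calls potential only. This list was chosen by the study on these samples, so its direction is not independent evidence. It was not particular to members either, as 12 of 13 were above 0 in comparison cells with a median of 0.36. A list of classic miR-34a targets had 11 of 15 above 0 and a median of 0.26 in members, against 14 of 15 and 0.23 in comparison cells.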

How the data were processed

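Single-cell suspensions of pooled CACs were sequenced with 10x 3′ v3.1 chemistry. As the authors and the submitters' processing notes describe, reads were counted with Cell Ranger 7.2.0 on mm10, cells were filtered, doublets were removed with Scrublet, and values were normalized with LogNormalize of Seurat. The authors deposited natural log values of 1 plus UMIs per 10000, and an annotation that gives every barcode its library and cell type, used here unchanged. No doublet caller was run again.

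After the log was undone, whole UMIs were recovered per cell from the step between its values. Levels are means over cells of UMIs per 10000. Ratios were called at a fold of 2 where a gene's mean reached 0.1 in either group, and no pseudocount was added. Intervals at 95% were exact Poisson (UMIs), exact binomial (shares), or taken from counting error of the means (ratios). The ratio intervals were run on simulated Poisson counts without variation between cells beyond depth. The simulation could not check the intervals where cells vary more than that. With 1 library per genotype, no test was made. The UMIs of a value set its counting error only. Variation between cells and between mice is not in the intervals, which are too narrow where few cells hold most UMIs of a gene. The members, the 27 gene lists and the splits were chosen with earlier results of these data known.

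Named genes were the markers, the targeted gene, list genes and 15 genes per direction, ranked by the smaller of both libraries' ratios, with a mean from 0.5 upwards and a UMI in 25% of cells or more, leaving out 413 immunoglobulin, mitochondrial and ribosomal RNA-like genes. The set called ribosomal RNA-like also held the protein-coding genes *Lars2* and *Cdk8*. *Cdk8*, which names a macrophage subtype in the study, could therefore not be named by the ranking. Genes outside this definition were named after their values were seen. Between the libraries, the 10 largest in each direction were taken, and some of the genes so chosen are not reported here. Alternatives were other *Arg1* thresholds, depth filters, thinning, summed UMIs, a stricter cell filter, other totals, pseudocount, minimum mean and fold, and removal of cells with markers of other types. There were 0 columns of unused samples. Python 3.11.15, numpy 2.4.6, scipy 1.17.1, pandas 2.3.3 and matplotlib 3.10.9 were used.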

Additional observations from a re-analysis of the deposited data

Results flagged for a closer look

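For 10 genes among those of the gene lists and those named by rule, the only ones searched, the log2 ratio of members over comparison cells lay on opposite sides of 0 in the libraries with intervals from counting error that exclude 0. The difference between the libraries was not tested, as each genotype had 1 library. The C1q genes were higher in members of Mir34a_F/F and lower in those of Mir34a_Mye_KO. *C1qa* had 0.71 and -0.52, *C1qb* 0.75 and -0.40, and *C1qc* 0.80 and -0.74. *Ctsb*, a lysosomal protease, had 0.73 and -0.094, *Dynll2* 0.47 and -0.78, and the epithelial cadherin *Cdh1* 0.22 and -0.50. The reverse order was seen for *Ccl22*, with -0.55 and 1.06, for *B3gnt5*, with -0.66 and 0.29, for *Osm*, with -0.39 and 0.25, and for *Csf1r*, with -0.14 and 0.24. *Ccl22* rests on few cells, as 33 and 17 members held 100% of its UMIs, and both its values changed sign, to 0.99 and -2.33, without cells whose markers of another type reached 25% of that type's own level.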

How the results depend on the processing

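Values are given for Mir34a_F/F and Mir34a_Mye_KO, in this order. The share of members was 17.1% and 7.69% with at least 2 *Arg1* UMIs, 12.1% in Mir34a_F/F with at least 5, 17.3% and 7.48% among macrophages of at least 3000 UMIs, and 24.6% and 11.5% whatever the *Mrc1*, an alternative added after seeing the data. It was 6.01% and 1.961% without cells that held 2 markers of another type, a filter that left 14 and 2 members. Gene ratios were therefore not run under it. A milder filter, chosen after seeing the data, removed cells whose markers of another type reached 25% of that type's own level and left 161 and 95 members. It gave shares of 17.6% and 7.61%, 473 and 313 genes higher, 349 and 449 lower, 24 and 23 list genes lower, and 282 higher between the libraries. Under it, *Ccl22* and *Ccl8* in Mir34a_Mye_KO reversed to -2.33 and 0.46. The share was higher in Mir34a_F/F under all of these alternatives. Another *Arg1* or *Mrc1* rule, fold, minimum mean or pseudocount changes the shares or counts by construction. For the other alternatives, among them the removal of cells with markers of other types, why a value moved was not tested.

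Counts of genes past the fold depended most on the minimum mean and pseudocount. Higher and lower genes were 704 and 716 in Mir34a_F/F and 642 and 1034 in Mir34a_Mye_KO at a fold of 1.5. They were 96 and 66, and 86 and 47, at a minimum mean of 0.5, and 1558 and 1730, and 1712 and 1837, with no minimum. With a pseudocount of 1 they were 29 and 8, and 27 and 3, with 19 and 4, and 18 and 0, of the list genes. Thinning to 3000 UMIs gave 337 and 379, and 445 and 808, and 459 higher and 977 lower between the libraries. It lowered detection to 63.5% and 47.4% for *Spp1*, 12.9% and 11.8% for *Nos2*, and 15.4% and 18.4% for *Il23a*. When immunoglobulin, mitochondrial and ribosomal RNA-like genes were left out of the totals, 508 genes were lower in Mir34a_Mye_KO. No paired analysis was possible because there was 1 library per genotype.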
